A study of Mus musculus with 18 samples.

Results

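Cortical tissue of newborn mice mutant for 2 retinoid receptor genes was compared between regions. The double mutants, given in the labels as RXRg, RARb and called dKO here, were mutant for Rxrg and Rarb, and the comparison set their 3 libraries of medial tissue against their 3 libraries of dorsal tissue, 6 of the 18 libraries of the series. All were taken at postnatal day 0 from frozen brain and made from total RNA by low-input whole-transcript amplification. The medial and dorsal libraries of a dKO row (title prefix and index row) were compared with each other, which gave 3 pairs, called rows 1, 2 and 3. The 3 medial and 3 dorsal libraries of control mice, which form 3 further rows, served as the second genotype, and 6 orbital libraries entered the fit to help estimate the spread. In both genotypes row 1 has the title prefix RAR and rows 2 and 3 have RXR, so row 1 is labelled apart from the others. Medial frontal, motor and orbitofrontal cortex were dissected per the design text, and which one of these is labelled Dorsal is not said. The labels also do not give the strain, litter, the altered exons or whether the libraries of a row came from a single brain, so the p-values measure the spread between these samples.

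The dKO medial libraries held 29595577 to 52317649 fragments assigned to genes, and the dKO dorsal libraries 31844102 to 58941490, with row 1 the deepest. Levels are given as counts per 1000000 counted fragments (CPM) after scaling of library sizes. Both tissues expressed Neurod6 at high levels. Neurod6, a transcription factor of these neurons, was at 1160, 1380 and 1520 CPM in dKO medial libraries and at 1010, 867 and 1280 CPM in dKO dorsal libraries (rows 1, 2 and 3). It did not pass the test. Xist, which is transcribed from the inactive X chromosome, was at 22.3, 0.0667 and 11.3 CPM in medial and 21.5, 0 and 9.88 CPM in dorsal libraries, so the 2 libraries of a row matched each other and row 2 differed from the other rows.

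Retinoic acid is made from vitamin A by retinol and retinaldehyde dehydrogenases, is broken down by CYP26 enzymes, and acts through nuclear receptors that bind DNA as pairs of a retinoic acid receptor and a retinoid X receptor. In the frontal cortex of newborn mice it is known as a signal that is distributed unevenly across areas. Medial and dorsal areas of the neocortex differ in the depth and density of their layers and in their connections, and neurogenic factors, area factors and adhesion molecules are known to vary between them.

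The targeted genes had low levels in both tissues. Rarb (ENSMUSG00000017491, GRCm38 chromosome 14, 16430839 to 16819156, minus strand) encodes retinoic acid receptor beta. It was at 2.72, 1.4 and 1.19 CPM in dKO medial libraries and at 3.01, 2.30 and 2.36 CPM in dKO dorsal libraries. Its medial level was the lower one in all 3 rows, the groups overlapped, and the log2 fold change of -0.59 (SE 0.259) did not pass (adjusted p = 0.253). Of its exon bases 38.4% are shared with exons of other genes, and the counting ignored strand, so part of these counts cannot be assigned with certainty. Rxrg (ENSMUSG00000015843, chromosome 1, 167598384 to 167639623, plus strand), the gene of retinoid X receptor gamma, was at 1.05, 1.67 and 0.377 CPM in medial and 1.02, 1.36 and 0.722 CPM in dorsal libraries (log2 fold change -0.13, SE 0.486, adjusted p = 0.934). Counts cover whole genes, so a transcript with a deleted part would still be counted.

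Rarb is itself a textbook target of retinoic acid, through a direct repeat in its promoter to which the receptor pair binds. The promoter window (250 bases before to 50 after a RefSeq start, GRCm38.p6, chr14:16575427-16575726, minus strand) is shown because it carries that repeat. This start lies inside the span of the gene given above and not at its outer end, 16819156. Capitals mark 2 copies of GTTCA in the same direction with 6 bases between them.
Rarb: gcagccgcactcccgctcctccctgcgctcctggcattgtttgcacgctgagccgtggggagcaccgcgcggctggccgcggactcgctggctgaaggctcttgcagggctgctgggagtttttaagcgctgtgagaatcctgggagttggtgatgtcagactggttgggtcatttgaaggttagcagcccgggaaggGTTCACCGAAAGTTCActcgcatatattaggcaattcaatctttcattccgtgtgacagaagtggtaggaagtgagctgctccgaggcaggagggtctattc
The repeat was searched on both strands and occurred in 25 of 32851 promoter windows (0.0761%). It was in none of the windows of the genes that passed the test between tissues, of which 119 of the 163 higher and 172 of the 229 lower genes matched a window by symbol. Since only 7 of 12687 tested genes with a window had it (0.0552%), none was likely in so few windows, and nothing follows from its absence. Only these exact letters and this spacing were searched, so other forms of such repeats were not counted. AGGTCA, a single half-site of nuclear receptors, was in 9 of the windows of higher genes (7.56%) and in 30 of the windows of lower genes (17.4%), against 15% of tested genes with a window and 16.3% of all windows.

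None of the 24 tested genes of the retinoic acid pathway passed in either direction. Over all genes tested 2.09% passed, so none in a list of this size says little. The median log2 fold change of the list was -0.04, against 0.02 over all genes tested. Aldh1a3, a retinaldehyde dehydrogenase that makes retinoic acid, was at 3.02, 4.70 and 3.31 CPM in dKO medial libraries and at 0.394, 0.287 and 0.657 CPM in dKO dorsal libraries. The groups did not overlap and the fitted log2 fold change was 2.99, but its SE was 1.11 and it did not pass (adjusted p = 0.182). Rdh10, the retinol dehydrogenase of the first step, was at 6.12, 15.2 and 13.7 CPM in medial and 7.82, 17.5 and 29.5 CPM in dorsal libraries (log2 fold change -0.54, SE 0.182, adjusted p = 0.139). The summed level of the pathway was 1000, 1120 and 998 CPM in medial and 1060, 1060 and 1040 CPM in dorsal libraries, and Cyp26c1 was at 0 in all 6. Fabp5 alone was at 295 to 374 CPM in these libraries. Abundant members thus weigh most in the sum, which says little about low members such as Aldh1a3. Of the 24 tested members, 11 had a positive and 13 a negative fold change.

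Across all genes, 392 of 18730 tested genes differed between medial and dorsal tissue of dKO mice (2.09%; edgeR's quasi-likelihood test with rows as a block and Benjamini-Hochberg adjusted p under 0.05). Of these, 163 were higher in medial tissue (0.87% of genes tested) and 229 were lower (1.22%). At an unadjusted p under 0.05 there were 3325 genes (17.8%). All 392 had the sign of the fit in each of the 3 rows, and the medial and dorsal libraries did not overlap for 147 of the higher and 209 of the lower genes. Such non-overlap was seen for 3578 of all genes tested (19.1%). The median log2 fold change was 0.98 among the higher genes and -0.95 among the lower genes. At least 2-fold differences were seen for 80 higher and 102 lower genes, and at least 4-fold differences for 20 and 13.

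**Figure D1:**
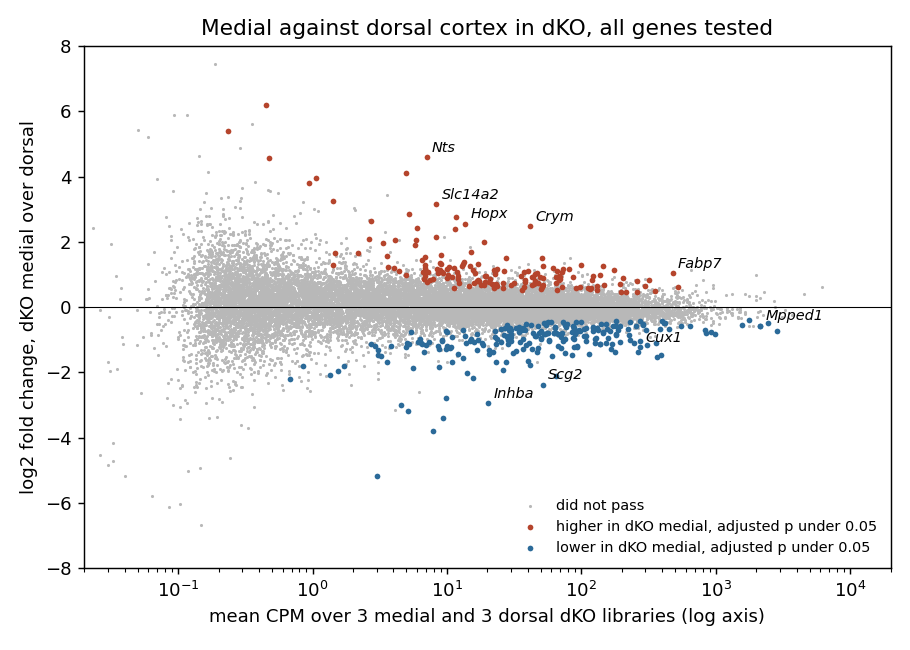
Log2 fold change of dKO medial over dorsal tissue (vertical axis) against the mean CPM of the 6 dKO libraries (horizontal log axis), 1 point for each gene tested, with genes at adjusted p under 0.05 in red (higher in medial) and blue (lower in medial). The 392 such genes lie on both sides of 0 and run from under 1 CPM to over 1000 CPM, and 8 genes fall outside the axes.

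The count rested on the pairing and on all 3 rows. Without the block for rows 17 genes passed, and without row 1, 2 or 3, 29, 53 and 119 genes passed, of which 28, 53 and 112 were among the 392. With the spread taken from the dKO medial and dorsal libraries alone 1787 genes passed. The libraries are bulk tissue, so in all that follows fewer cells of a type and less RNA per cell cannot be told apart. With 2.09% of all genes tested past the threshold, a short list with no member past it says little about that list.

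Factors that pattern cortical areas differed in both directions, with 3 of 23 tested members higher in medial tissue and 3 lower (0 to 4 each way over the alternatives tried). Etv1, a transcription factor of layer 5 neurons that responds to FGF signalling, was at 82.6, 41.6 and 57.9 CPM in dKO medial libraries and at 30.1, 27.9 and 29.1 CPM in dKO dorsal libraries. The groups did not overlap, and the log2 fold change was 1.02 (SE 0.196, adjusted p = 0.0163). Lmo4, a LIM-only cofactor, was at 174, 239 and 188 CPM in medial and 97.0, 49.8 and 117 CPM in dorsal libraries (1.25, SE 0.244, adjusted p = 0.0174). Both were higher in medial than in dorsal tissue in every row. Pax6, a factor of cortical progenitors, is the third higher member and is described with the progenitor genes.

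Members of the same list that were lower in medial tissue included Nr2f1, or COUP-TFI, which is known for high levels in caudal and low levels in frontal cortex. It was at 9.44, 12.3 and 10.7 CPM in dKO medial libraries and at 13.0, 29.8 and 26.6 CPM in dKO dorsal libraries (log2 fold change -1.01, SE 0.213, adjusted p = 0.0256). Bcl11a, which is needed for the identity of sensory areas in mouse cortex, was at 122, 96.6 and 103 CPM in medial and 161, 265 and 131 CPM in dorsal libraries (-0.75, SE 0.179, adjusted p = 0.047). Rorb, an orphan receptor gene of layer 4 neurons, was at 45.9, 32.0 and 44.9 CPM in medial and 97.5, 123 and 112 CPM in dorsal libraries, at least 2-fold apart in each row (-1.42, SE 0.255, adjusted p = 0.0132). The groups did not overlap for any of these genes.

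Of 17 tested genes of upper layer neurons 6 were lower in medial tissue and 1, Lmo4, was higher, and the number of lower members ran from 2 to 10 over the alternatives tried. The list's median log2 fold change was -0.69. Cux1 and Cux2 are homeodomain factors that define the upper layers. Cux1 was at 173, 148 and 169 CPM in dKO medial libraries and at 354, 369 and 433 CPM in dKO dorsal libraries (-1.23, SE 0.13, adjusted p = 0.000865). Cux2 was at 28.6, 21.4 and 24.4 CPM in medial and 73.7, 56.1 and 52.2 CPM in dorsal libraries (-1.28, SE 0.149, adjusted p = 0.000936). For Cux2 the highest medial value was well below the lowest dorsal value, and the medial libraries of both genes lay close together. Inhba, which encodes the activin subunit beta A, showed the biggest difference of the list, with 5.24, 6.17 and 2.75 CPM in medial and 38.4, 44.3 and 24.4 CPM in dorsal libraries (-2.94, SE 0.313, adjusted p = 0.000865). Mdga1, a cell adhesion molecule of layer 2/3 neurons, averaged 25.6 ± 0.46 CPM in medial and 68.1 ± 19.9 CPM in dorsal libraries (SD, n = 3 each; -1.38, SE 0.201). The summed level of the 17 genes was 1770, 1550 and 1860 CPM in medial and 2100, 2400 and 2420 CPM in dorsal libraries.

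**Figure D2:**
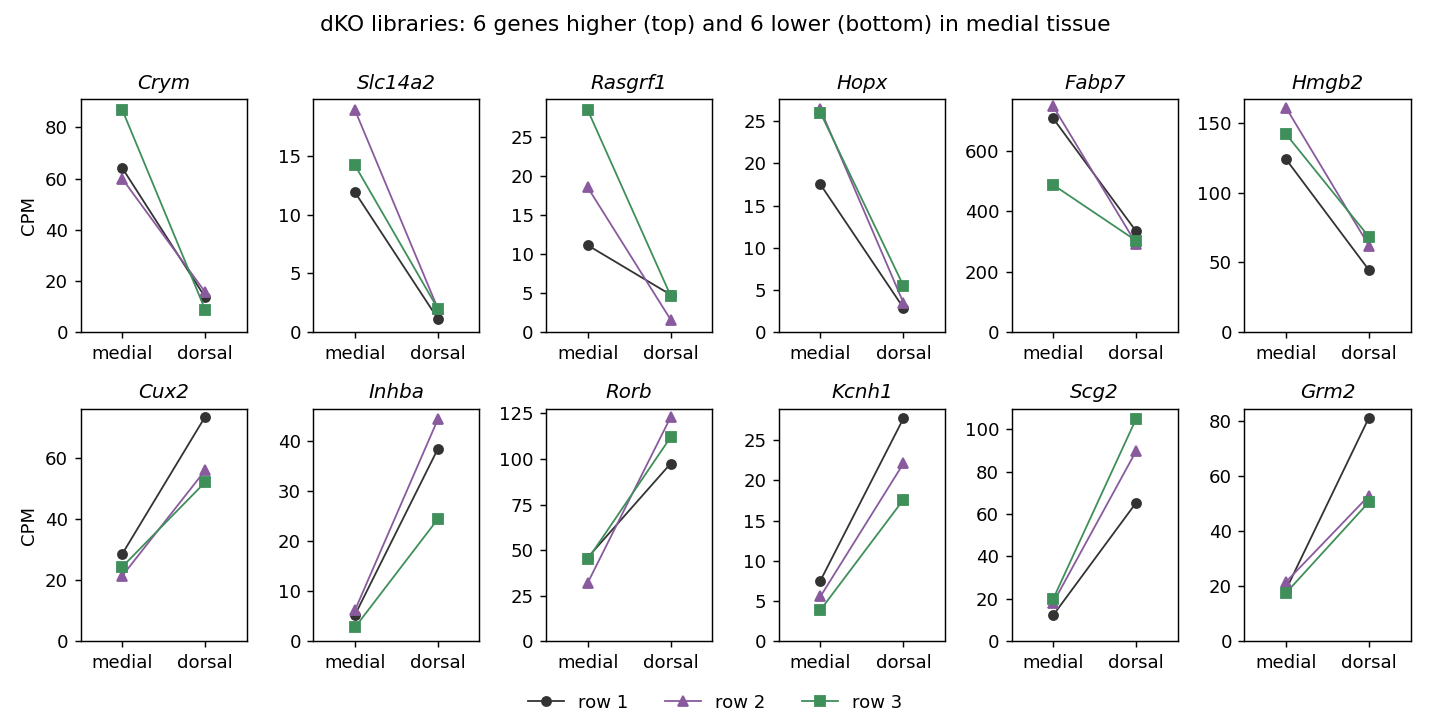
CPM in each dKO library (vertical axes, linear and starting at 0) for 6 genes higher (top) and 6 genes lower (bottom) in medial tissue, with medial on the left, dorsal on the right and a line joining the libraries of a row. Every line of the top panels slopes down to dorsal tissue and every line of the bottom panels slopes up. Inhba, for example, has 5.24 CPM in medial and 38.4 CPM in dorsal tissue of row 1.

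Deep layer genes were split, with 3 higher and 3 lower of 23 tested (0 to 4 higher and 0 to 5 lower over the alternatives tried). Crym encodes mu-crystallin, a protein that binds thyroid hormone in the cytosol. It was at 64.2, 60.0 and 87.0 CPM in dKO medial libraries and at 13.6, 15.6 and 8.73 CPM in dKO dorsal libraries, with no overlap (log2 fold change 2.47, SE 0.344, adjusted p = 0.00277). Fezf2, which specifies subcerebral projection neurons, was at 71.5, 81.6 and 119 CPM in medial and 42.1, 39.1 and 57.2 CPM in dorsal libraries (0.97, SE 0.152, adjusted p = 0.00584). The third higher member was Etv1. The 3 lower members were Ntsr1, a neurotensin receptor of corticothalamic neurons, Sox5, which controls the sequence of deep layer neuron types, and the receptor phosphatase gene Ptprk. Ntsr1 was at 23.9, 21.7 and 22.1 CPM in medial and 54.3, 52.4 and 36.4 CPM in dorsal libraries (-1.05, SE 0.17, adjusted p = 0.00698). Sox5 averaged 54.9 ± 7.45 CPM in medial and 130 ± 24.7 CPM in dorsal libraries (-1.23, SE 0.22), and Ptprk 190 ± 9.03 and 427 ± 54.6 CPM (-1.18, SE 0.213). The factors Bcl11b and Tbr1, which define deep layers, had log2 fold changes of -0.04 and -0.11 and did not pass.

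Other genes with the lowest p among those higher in medial tissue came from several kinds of protein. Slc14a2, a urea transporter gene, was at 11.9, 18.9 and 14.2 CPM in dKO medial libraries and at 1.12, 1.98 and 1.97 CPM in dKO dorsal libraries (log2 fold change 3.16, SE 0.436, adjusted p = 0.00274). Rasgrf1, an exchange factor that activates Ras, was at 11.1, 18.5 and 28.4 CPM in medial and 4.76, 1.57 and 4.63 CPM in dorsal libraries (2.38, SE 0.331). Both genes were higher in each medial library than in any dorsal library. Ppp1r17, which encodes an inhibitor of protein phosphatases, was low in both tissues, at 2.76, 2.6 and 2.32 CPM in medial and 0.46, 0.131 and 0.23 CPM in dorsal libraries (3.24, SE 0.421). Smaller differences were seen for the ubiquitin ligase gene March1 (1.10, SE 0.155), the phosphodiesterase gene Smpdl3a (1.10, SE 0.127), the WNT pathway gene Ankrd6 (1.07, SE 0.127), the tetraspanin gene Tspan18 (1.17, SE 0.149), the glycosyltransferase gene Mgat4c (1.19, SE 0.16) and Nol4 (0.70, SE 0.0972). Their adjusted p ran from 0.000936 (Smpdl3a and Ankrd6) to 0.00286 (March1).

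The lower genes with the lowest p also came from several kinds of protein. Kcnh1, a voltage-gated potassium channel gene, had the lowest p of all, with 7.54, 5.57 and 3.89 CPM in dKO medial libraries and 27.7, 22.1 and 17.6 CPM in dKO dorsal libraries (log2 fold change -2.01, SE 0.188, adjusted p = 0.000837). Scg2 encodes secretogranin II, a granin of secretory granules, and Pcsk2 a convertase that cuts prohormones. Scg2 was at 12.3, 18.2 and 20 CPM in medial and 65.4, 89.8 and 105 CPM in dorsal libraries (-2.37, SE 0.256, adjusted p = 0.000865). Pcsk2 was at 36.8, 51.3 and 47.3 CPM in medial and 117, 150 and 110 CPM in dorsal libraries (-1.47, SE 0.159, adjusted p = 0.000865). Neither gene's groups overlapped. Npy, the precursor of neuropeptide Y and a member of the interneuron list, was lower as well, with 79.8, 136 and 101 CPM in medial and 200, 272 and 217 CPM in dorsal libraries (-1.14, SE 0.187, adjusted p = 0.00749). The repressor gene Bcl6 (-1.93, SE 0.221), the heparan sulfate sulfotransferase gene Hs3st5 (-1.56, SE 0.18), the GTPase regulator gene Arhgap29 (-1.43, SE 0.165) and the oxysterol-binding protein gene Osbpl1a (-1.10, SE 0.122) each had an adjusted p of 0.000936. Jakmip1, which shares 48.2% of its exon bases with another gene model, had a log2 fold change of -1.70 (SE 0.172).

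Adhesion and guidance genes that passed were mostly lower in medial tissue. Of 21 tested cadherins and protocadherins 3 were lower (1 to 5 over the alternatives tried) and none higher. Cdh6 was at 16.7, 18.7 and 20.2 CPM in dKO medial libraries and at 57.0, 83.3 and 55.1 CPM in dKO dorsal libraries (log2 fold change -1.77, SE 0.206, adjusted p = 0.000936). Cdh12 had a log2 fold change of -1.24 (SE 0.183, adjusted p = 0.00419) and Pcdh7 of -0.97 (SE 0.158, adjusted p = 0.00739). The list's median was 0.04 and 11 of the 21 had a positive fold change. Of 26 Eph, ephrin, netrin and Slit genes 13 had a positive and 13 a negative fold change (median -0.08). Among the 26, 3 were lower (0 to 6 over the alternatives tried) and none higher. These were Unc5c, a netrin receptor gene (15.3, 8.23 and 8.90 CPM in medial and 29.9, 40.7 and 20.2 CPM in dorsal libraries, -1.44, SE 0.233, adjusted p = 0.00722), and the Eph receptor genes Epha3 (-1.14, SE 0.208, adjusted p = 0.0139) and Epha5 (-0.53, SE 0.114, adjusted p = 0.0303). None of 21 semaphorin, plexin and neuropilin genes passed (median -0.29), the nearest being Plxnd1, at 15.7, 34.1 and 29.2 CPM in medial and 29.8, 67.2 and 105 CPM in dorsal libraries (-1.28, SE 0.313, adjusted p = 0.0507). Of 32 synaptic organizers, Flrt2 (0.82, SE 0.158, adjusted p = 0.0172) and Tenm4 (0.93, SE 0.215, adjusted p = 0.0417) were higher and Tenm1 was lower (-1.15, SE 0.212, adjusted p = 0.0142). The groups of Tenm1 overlapped.

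Receptor and release genes of the synapse that passed were all lower in medial tissue, though few passed. Of 34 tested glutamate receptor and postsynaptic genes 3 were lower and none higher, and the median log2 fold change was -0.33. Over the alternatives tried, 0 to 10 of them were lower. Grm2, a presynaptic metabotropic glutamate receptor gene, was at 18.7, 21.5 and 17.5 CPM in dKO medial libraries and at 81.1, 52.8 and 50.5 CPM in dKO dorsal libraries (-1.66, SE 0.214, adjusted p = 0.00171). Grm7, a second receptor of this family, was at 15.2, 7.47 and 6.12 CPM in medial and 33.4, 11.8 and 14.7 CPM in dorsal libraries, where the groups overlapped while each row kept the direction (-1.03, SE 0.199, adjusted p = 0.0163). Camk2b, a subunit of the calcium-dependent kinase of postsynaptic sites, averaged 519 ± 138 CPM in medial and 759 ± 76.5 CPM in dorsal libraries (-0.57, SE 0.125, adjusted p = 0.0335). Of 26 presynaptic release genes 2 were lower, none was higher and 23 had a negative fold change (median -0.39). Stx1a, a syntaxin of the vesicle fusion machinery, was at 66.8, 55.3 and 59.7 CPM in medial and 93.9, 81.8 and 104 CPM in dorsal libraries (-0.62, SE 0.129, adjusted p = 0.0249). Sv2c, a synaptic vesicle protein gene, had a log2 fold change of -1.14 (SE 0.268, adjusted p = 0.0434), and its groups overlapped. Of 20 cholesterol synthesis genes none passed and 17 had a negative fold change (median -0.30), and of 15 immediate early genes none passed (median -0.20).

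Genes of the dividing progenitors of the cortex ran the other way. Radial glia are the stem cells that line the ventricle and intermediate progenitors are their neurogenic daughters. Of 17 tested radial glia markers 4 were higher and none lower, all 17 had a positive fold change, and the median log2 fold change was 0.67. Over all genes tested 51.7% of fold changes were above 0. Fabp7, a lipid-binding protein of radial glia, was at 707, 747 and 487 CPM in dKO medial libraries and at 333, 292 and 302 CPM in dKO dorsal libraries (1.04, SE 0.128, adjusted p = 0.00126). Hopx, a homeodomain-only protein gene, was at 17.5, 26.4 and 26 CPM in medial and 2.86, 3.45 and 5.48 CPM in dorsal libraries (2.56, SE 0.407, adjusted p = 0.00648). Part of the Hopx counts is uncertain, since 27.2% of its exon bases are shared with an antisense gene. Pax6 was at 34.2, 14.6 and 21.7 CPM in medial and 6.18, 7.96 and 6.83 CPM in dorsal libraries (1.68, SE 0.375, adjusted p = 0.0361), highest in row 1. Vim, the vimentin gene, averaged 140 ± 22.8 CPM in medial and 94.4 ± 7.47 CPM in dorsal libraries (0.56, SE 0.128, adjusted p = 0.0403).

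Intermediate progenitor genes gave 2 higher and no lower members of 10 tested (median 0.86). Neurog2, a proneural factor, was at 14.7, 4.97 and 9.34 CPM in dKO medial libraries and at 2.50, 1.80 and 2.27 CPM in dKO dorsal libraries (log2 fold change 2.05, SE 0.376, adjusted p = 0.0141). Mfng, which modifies Notch receptors with sugars, was at 39.1, 25.7 and 28.4 CPM in medial and 12.1, 14.7 and 14.2 CPM in dorsal libraries (1.14, SE 0.264, adjusted p = 0.0428). Eomes, the defining factor of these cells, was at 24, 9.77 and 13.2 CPM in medial and 2.38, 3.37 and 3.97 CPM in dorsal libraries. Its groups did not overlap, but with an SE of 0.838 its log2 fold change of 2.13 did not pass (adjusted p = 0.203). Neurod1, a factor of newly formed excitatory neurons, was also higher, at 43.2, 21.5 and 45.3 CPM in medial and 17.1, 13.5 and 19.5 CPM in dorsal libraries (1.09, SE 0.202, adjusted p = 0.0145).

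Cell cycle genes had 6 higher and no lower members of 27 tested, and 26 of the 27 had a positive fold change (median 0.69). Cdk1, the kinase that drives entry into mitosis, was at 33.9, 32.8 and 28.4 CPM in dKO medial libraries and at 21.4, 21.0 and 20.5 CPM in dKO dorsal libraries (0.59, SE 0.131, adjusted p = 0.0346). Cenpa, the histone H3 variant of centromeres, was at 27, 25.3 and 25.2 CPM in medial and 12.0, 13.8 and 14.5 CPM in dorsal libraries (0.94, SE 0.186, adjusted p = 0.0186). The groups of both genes were narrow and did not overlap. The mitotic kinase gene Pbk (0.96, SE 0.191), the thymidylate synthase gene Tyms (0.79, SE 0.151), the replication helicase gene Mcm5 (0.80, SE 0.185) and the survivin gene Birc5 (0.74, SE 0.178) also passed, with adjusted p from 0.016 (Tyms) to 0.0466 (Birc5). The groups overlapped for Tyms and Mcm5 but not for Pbk and Birc5. Birc5 did not pass in 7 of the alternative fits, Cdk1 and Mcm5 in 6 each, and Tyms, Cenpa and Pbk in 4 each. Mki67, the classical proliferation marker, was at 33.9, 16.8 and 17.3 CPM in medial and 14.8, 13.6 and 11.9 CPM in dorsal libraries and did not pass (0.69, SE 0.302, adjusted p = 0.253). Hmgb2, a chromatin protein abundant in dividing cells, was among the genes with the lowest p, at 124, 161 and 142 CPM in medial and 44.4, 61.9 and 68.2 CPM in dorsal libraries (1.30, SE 0.154, adjusted p = 0.000936). The number of cell cycle genes that passed ran from 0 to 20 over the alternatives tried, and that of radial glia genes from 1 to 10.

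Promoters of mitotic genes are known for CCAAT boxes followed by a cell cycle homology region, TTTGAA, close to the start. The windows of 3 higher genes, each 250 bases before to 50 after the start (RefSeq, GRCm38.p6), are shown because all 3 carry both motifs. Capitals mark TTTGAA and CCAAT on either strand, which appear as TTCAAA and ATTGG where they lie on the other strand, and no copies overlap. Cdk1 lies at chr10:69352863-69353162 (minus strand), Cenpa at chr5:30666636-30666935 (plus strand) and Hmgb2 at chr8:57511593-57511892 (plus strand).
Cdk1: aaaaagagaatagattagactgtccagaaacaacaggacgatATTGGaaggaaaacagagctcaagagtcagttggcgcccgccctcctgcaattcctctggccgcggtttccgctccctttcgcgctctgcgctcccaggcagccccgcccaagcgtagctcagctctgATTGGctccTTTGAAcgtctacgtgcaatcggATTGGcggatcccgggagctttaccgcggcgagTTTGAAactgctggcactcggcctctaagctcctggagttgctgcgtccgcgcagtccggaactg
Cenpa: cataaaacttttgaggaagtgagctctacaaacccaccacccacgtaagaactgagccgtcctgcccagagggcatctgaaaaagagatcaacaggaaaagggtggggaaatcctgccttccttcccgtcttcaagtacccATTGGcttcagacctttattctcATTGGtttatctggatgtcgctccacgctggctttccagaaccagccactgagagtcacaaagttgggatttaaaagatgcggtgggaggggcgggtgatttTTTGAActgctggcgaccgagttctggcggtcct
Hmgb2: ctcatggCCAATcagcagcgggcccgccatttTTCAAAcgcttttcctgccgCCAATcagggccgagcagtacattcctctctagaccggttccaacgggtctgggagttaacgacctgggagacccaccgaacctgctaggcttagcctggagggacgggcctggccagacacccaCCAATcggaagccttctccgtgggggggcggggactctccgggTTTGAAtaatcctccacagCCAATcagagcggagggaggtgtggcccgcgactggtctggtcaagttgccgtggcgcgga
TTTGAA was in the windows of 11 of the 22 cell cycle genes with a window, and in 14.7% of tested genes with a window and 17.9% of all windows. CCAAT was in 19 of these 22, and in 42.4% of tested genes with a window and 37.4% of all windows. Of the 5 cell cycle genes that passed and have a window, 2 had TTTGAA and 3 had CCAAT. Among the 119 higher genes with a window 26 (21.8%) had TTTGAA and 59 (49.6%) had CCAAT, and among the 172 lower genes 30 (17.4%) and 69 (40.1%). A match is a description of these letters and not evidence of binding.

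Blood, microglia, astrocyte and mitochondrially encoded respiratory chain genes also leaned to medial tissue, though only 1 of them passed. The summed radial glia markers were at 2800, 1920 and 1990 CPM in dKO medial libraries and at 1430, 1380 and 1310 CPM in dKO dorsal libraries, and the summed cell cycle genes at 1320, 787 and 937 CPM in medial and 737, 688 and 626 CPM in dorsal libraries. Both sums were highest in the medial library of row 1. Blood genes such as Hbb-bs and Hba-a1 summed to 2990, 1610 and 2020 CPM in medial and 1750, 1080 and 1170 CPM in dorsal libraries, with all 7 tested members positive and none past the test (median 0.66). All genes of the mitochondrial chromosome together took 0.842%, 1.986% and 0.839% of fragments in medial and 0.593%, 1.15% and 0.715% in dorsal libraries. Among them, the respiratory chain list had 12 of 12 tested members positive and none past the test (median 0.53). Microglia markers had 15 of 17 members positive and none past the test (median 0.37). Astrocyte markers had 16 of 18 positive (median 0.42), and 1 passed, the membrane protein gene Mlc1, at 103, 73.3 and 80.7 CPM in medial and 34.4, 33.0 and 45.1 CPM in dorsal libraries (1.19, SE 0.242, adjusted p = 0.0231). Endothelial and pericyte markers lay on the other side, with 18 of 20 negative and none past the test (median -0.41), and summed to 508, 515 and 421 CPM in medial and 683, 627 and 602 CPM in dorsal libraries. The part of these cell types or of the mitochondrial share in the differences of the layer, synapse and progenitor genes was not tested.

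Of 12 markers of cortical excitatory neurons Fezf2, Neurod1 and Nrn1 were higher and 1 was lower. Nrn1, which encodes the secreted neurotrophic protein neuritin, was at 4.29, 5.23 and 6.41 CPM in dKO medial libraries and at 1.22, 1.78 and 2.43 CPM in dKO dorsal libraries (log2 fold change 1.58, SE 0.328, adjusted p = 0.0249). Of its exon bases 22.3% are shared with another gene.

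Markers of neighbouring tissues gave few calls. Of the olfactory bulb markers only Fabp7 passed, and of the ensheathing glia markers Fabp7 and Npy, which other lists hold as well. Of 17 striatal markers Foxp1 (70.8 ± 7.98 CPM in dKO medial and 147 ± 25 CPM in dKO dorsal libraries, log2 fold change -1.05, SE 0.133, adjusted p = 0.00158) and Ppp1r1b (-1.05, SE 0.175, adjusted p = 0.00809) were lower and Meis2 (0.67, SE 0.147, adjusted p = 0.0335) was higher, and all 3 are also expressed in cortical neurons. The striatal genes Drd1 and Adora2a had log2 fold changes of -0.16 and -0.26 and did not pass. Of 21 interneuron genes 3 were lower, among them Npy and Npas1 (31.6 ± 0.964 CPM in medial and 55.8 ± 11.2 CPM in dorsal libraries, -0.81, SE 0.138, adjusted p = 0.00961), and none was higher. Of the 21, 12 had a positive and 9 a negative fold change (median 0.045), so the list as a whole did not lean to dorsal tissue. The lower interneuron genes numbered 0 to 4 over the alternatives tried, while Gad1 and Gad2, the enzymes that make GABA, had log2 fold changes of 0.05 and 0.09. Of 11 septal markers Trpc4 was lower (-1.69, SE 0.315, adjusted p = 0.0151) and 1 was higher. Of 20 midline WNT and BMP genes 2 were higher, among them Rspo3, a WNT agonist of the midline (1.25, SE 0.216, adjusted p = 0.0101). The groups of Rspo3 overlapped. The ligand gene Wnt7b was the lower member, at 196, 176 and 182 CPM in medial and 440, 495 and 691 CPM in dorsal libraries (-1.53, SE 0.262, adjusted p = 0.00964). Of 13 hippocampal genes Mpped1 was lower (-0.57, SE 0.0862, adjusted p = 0.00487). None of the Cajal-Retzius, oligodendrocyte, meningeal, choroid plexus or midline glia markers passed, and Wnt8b, Fgf17, Foxd3 and Tmem212 were at 0 in all 6 libraries. The meningeal sum was 1820 to 2670 CPM in medial and 2360 to 3000 CPM in dorsal libraries.

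**Figure D3:**
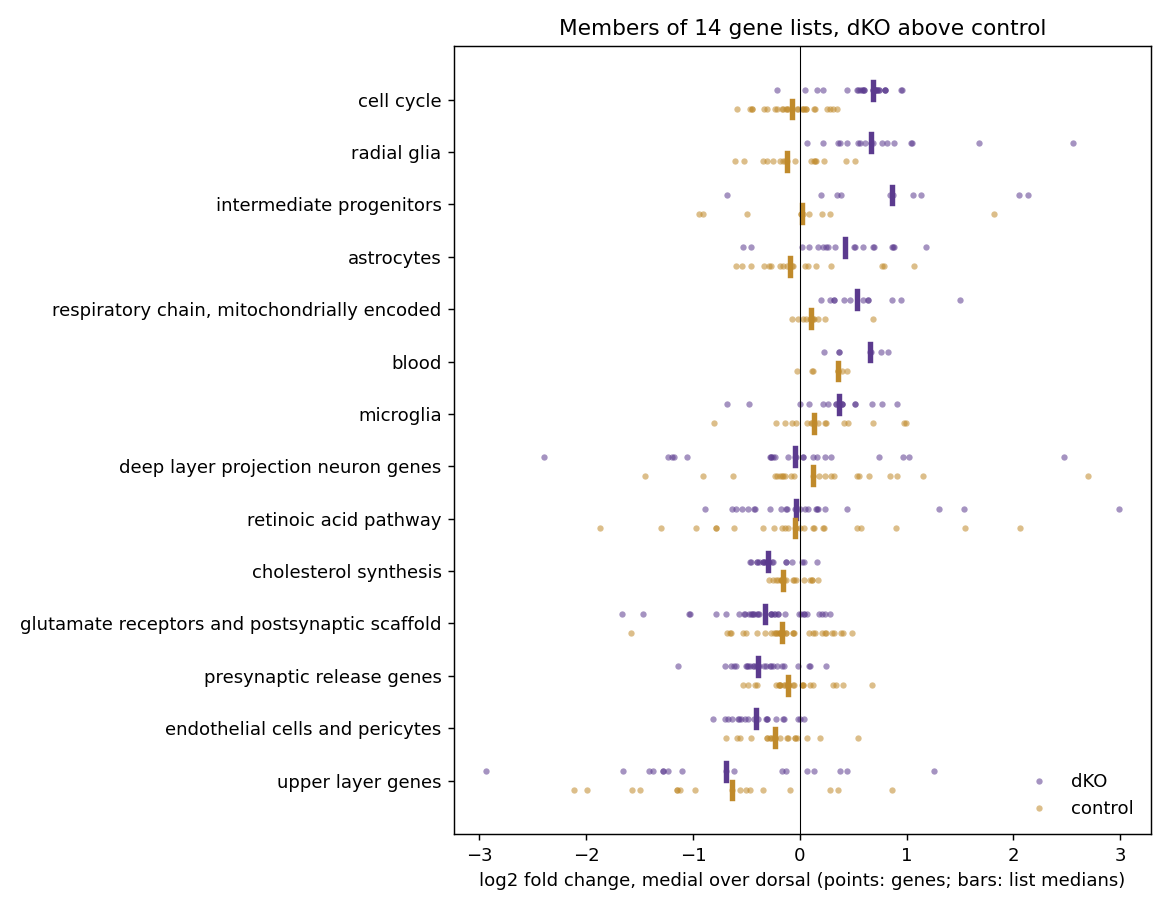
Log2 fold change of medial over dorsal tissue (horizontal axis) for each tested member of 14 gene lists, with dKO points above control points and a bar at each median. In dKO the cell cycle and radial glia medians stand at 0.69 and 0.67 and those of controls at -0.07 and -0.12, while the upper layer medians are -0.69 in dKO and -0.63 in controls.

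The same contrast was taken in controls, in the same fit and from other libraries. In controls 92 genes passed (0.491% of genes tested), 39 higher and 53 lower in medial tissue, and 1753 had an unadjusted p under 0.05. Without control row 1, 2 or 3, 17, 42 and 7 genes passed, of which 16, 32 and 6 were among the 92. Of the 392 dKO genes 56 also passed in controls (14.3%), all in the same direction, and these were 60.9% of the control genes. Of the control genes 91 of 92 had the same sign in dKO. Across 14306 genes with a mean of at least 1 CPM, Pearson's r between the dKO and control fold changes was 0.49, which describes these libraries, since genes are not independent replicates. The lower genes of dKO had a median of -0.51 in controls and 219 of 229 kept the sign. The higher genes had a median of 0.28 and 128 of 163 kept it. Since the genes were chosen by their dKO values, smaller values in controls follow in part from that choice.

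Several genes passed in both genotypes. Crym had log2 fold changes of 2.47 in dKO and 2.70 in controls, Neurod1 1.09 and 1.62, Cux1 -1.23 and -1.57, Cux2 -1.28 and -1.50, Inhba -2.94 and -2.11, Grm2 -1.66 and -1.58, Trpc4 -1.69 and -2.12 and Pcsk2 -1.47 and -1.34. Most progenitor genes described above did not pass in controls. Fabp7 was at 0.15 in controls, Cdk1 at -0.11, Pbk at -0.13, Pax6 at -0.31 and the astrocyte gene Mlc1 at -0.18, with adjusted p from 0.759 to 0.87. Positive control values were found for Birc5 (0.31), Hmgb2 (0.26), Cenpa (0.25), Tyms (0.135), Vim (0.13), Mfng (0.085) and Mcm5 (0.06). Their adjusted p ran from 0.647 to 0.942. Hopx was at 0.52 and Neurog2 at 1.82 in controls (adjusted p = 0.733 and 0.0598). The summed radial glia markers of controls were at 971, 1640 and 1420 CPM in medial and 1410, 1480 and 1430 CPM in dorsal libraries, and overlapped. The summed cell cycle genes of controls were at 558, 517 and 421 CPM in medial and 745, 485 and 376 CPM in dorsal libraries. Only in row 1 was the medial cell cycle sum the lower one.

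**Figure D4:**
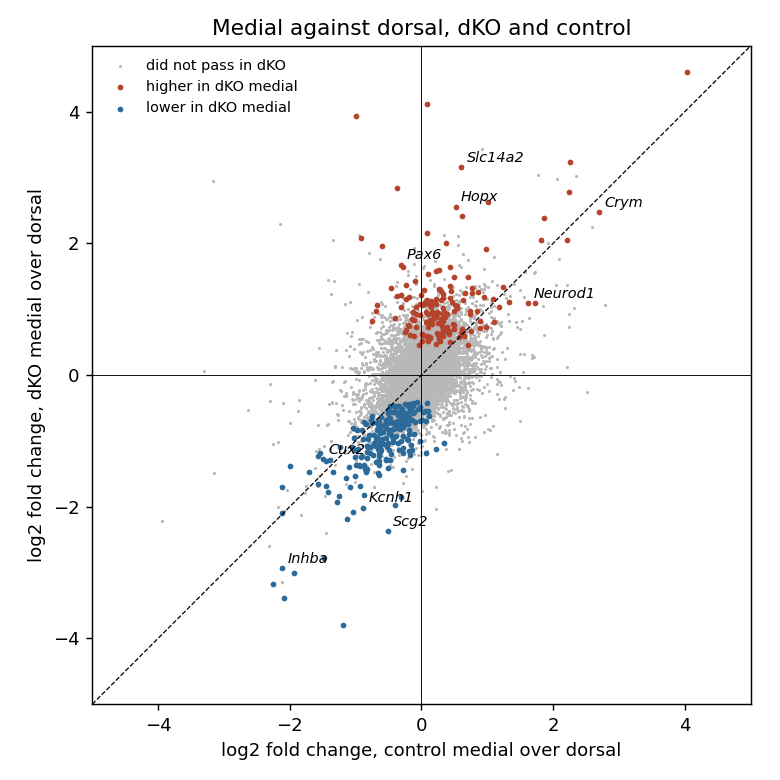
Log2 fold change of medial over dorsal tissue in dKO (vertical axis) against that in controls (horizontal axis) for genes with a mean of at least 1 CPM, with genes that passed in dKO in colour and a dashed line at equal values. Crym and Cux2 lie near the line at 2.47 and 2.70 and at -1.28 and -1.50, whereas Hopx and Slc14a2 lie above it at 2.56 and 0.52 and at 3.16 and 0.61 (dKO and control), and 2 genes fall outside the axes.

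The test of the difference itself passed for none of 18730 genes (0.0%) in edgeR. It passed for 61 genes in DESeq2 and for 72 without a filter on low counts. In edgeR 969 genes (5.17%) had an unadjusted p under 0.05, close to the share that this limit passes where no gene differs. A call in dKO alone is therefore not shown to be particular to dKO. Fam210b, a mitochondrial membrane protein gene, had the lowest p for the difference. It was at 341, 413 and 480 CPM in dKO medial and 221, 212 and 260 CPM in dKO dorsal libraries, but at 157, 93.1 and 90.7 CPM in control medial and 230, 144 and 191 CPM in control dorsal libraries. The direction was opposite in the 2 genotypes in all rows, and the difference of log2 fold changes was 1.58 (SE 0.231, adjusted p = 0.161). Ezr, a linker of membrane and actin, had 1.66 (SE 0.305, adjusted p = 0.348), the DNA repair gene Brca1 2.85 (SE 0.523, adjusted p = 0.348), Smpdl3a 1.06 (SE 0.178, adjusted p = 0.251) and the glial potassium channel gene Kcnj10 1.67 (SE 0.329, adjusted p = 0.376).

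The negative differences with the lowest p did not pass either. Scg2 had a difference of -1.86 (SE 0.35, adjusted p = 0.348). It was at 18.6, 51.2 and 62.3 CPM in control medial and 48.9, 49.9 and 78.6 CPM in control dorsal libraries, so the control values overlapped where the dKO values did not. Necab1, a calcium-binding protein gene, had a difference of -1.03 (SE 0.201), Lrp1b of -1.35 (SE 0.28), Tcerg1l of -1.09 (SE 0.237) and Vwc2l of -1.52 (SE 0.337), with adjusted p from 0.376 to 0.476. For the cell cycle list all 27 members had a positive difference (median 0.70), for radial glia all 17 (median 0.81) and for intermediate progenitors all 10 (median 0.80), with no member past the test, against 50% positive over all genes tested. Lists of other cells and of the synapse also lay mostly on 1 side, with no member past the test. The difference was positive for 12 of 12 mitochondrially encoded respiratory chain genes (median 0.38) and 6 of 7 blood genes (median 0.32). It was also positive for 14 of 18 astrocyte markers (median 0.35) and 13 of 17 microglia markers (median 0.23). It was negative for 23 of 26 presynaptic release genes (median -0.25) and 28 of 34 glutamate receptor and postsynaptic genes (median -0.24). Genes of a list are not independent replicates, so all these counts of members describe these libraries only. Among progenitor genes the difference was 0.89 for Fabp7 (SE 0.18, adjusted p = 0.381), 2.04 for Hopx (SE 0.56, adjusted p = 0.576), 1.99 for Pax6 (SE 0.53, adjusted p = 0.562) and 0.70 for Cdk1 (SE 0.187, adjusted p = 0.562).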

How the data were processed

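RNA was measured in 18 libraries, of which the 3 medial and 3 dorsal dKO libraries are compared here. The deposited table holds raw fragment counts per gene, per the file headers counted in pairs, ignoring strand, by featureCounts 1.6.2 on GRCm38. Per the submitters' processing notes, reads were aligned with STAR 2.6. The table's gene length column was used by no test, and 6 of its 24 per-sample columns matched no sample and were not used. Rows were taken from title prefix and index. Deviations from group means correlated at 0.525 to 0.812 within dKO rows and 0.322 to 0.699 within control rows (10308 genes), so rows were a block. edgeR 4.0.16 in R 4.3.3 (TMM, filterByExpr with counts of 10 and 15, quasi-likelihood) fitted all 18 libraries with 8 residual degrees of freedom. SE is the fold change over the square root of F. Row differences used a prior count of 2. The fit was also run on simulated counts, which held no differences between rows, so that run did not test the block. Totals of 29595577 to 58941490 fragments set the precision of low genes.

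Alternatives were DESeq2 1.42.0, limma-voom 3.58.1, other scalings, filters and leaving out rows. Named genes were the 12 per direction with the lowest p, at least 1 CPM and the same sign in 3 rows, leaving out predicted, Y-linked genes and Xist, 5 per direction for the difference, both targeted genes, and per list up to 6 that passed or else the 2 with the lowest p. Genes given beyond these (Neurod6, Xist, Eomes, Mki67, Tbr1, Bcl11b, Drd1, Adora2a, Gad1, Gad2, Hba-a1) are defining markers. Fabp5 is given as the most abundant member of its list. Some genes are not reported here. Members and lists were chosen with earlier results of these data known. Promoters came from RefSeq. Figures used matplotlib 3.10.9.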

Additional observations from a re-analysis of the deposited data

How the results depend on the processing

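The number of genes that differed between dKO medial and dorsal tissue (392) was 398 with RLE and 414 with upper-quartile size factors, 461 at a mean of at least 1 CPM, 466 with limma-voom and 397 with robust edgeR. It was 89 at an adjusted p under 0.01, 17 with no replicate block, 1787 with the replicate block in these libraries only, 1169 without a filter and 1299 with DESeq2. Leaving out a row gave 29 to 819 genes, the highest without control row 1. In controls (92) the count was 11 at 0.01, 1 with no replicate block, 0 with the block in these libraries only (1076 at an unadjusted p under 0.05), 356 without a filter, 356 with DESeq2, 145 with limma-voom, and 7 to 42 leaving out a row. For the difference (0) it was 72 without a filter, 61 with DESeq2 and 0 leaving out any row. Of 76 named genes that passed, 9 passed in every other fit; 64 did not without the block, and 54, 47 and 33 did not without row 1, 2 or 3. None of these changed sign. Rxrg, which did not pass, ran from -0.41 to 0.18 leaving out a row and reversed without row 3. The causes were not tested.

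Exons of 36 of 109 named genes overlap another gene, 6 by over 20% (among them Pcdh7, Nrn1, Hopx, Jakmip1 and Rarb), and unstranded counting cannot separate them.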

Other observations

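Genes in these paragraphs were chosen after their values were seen. Each passed the test across all genes. Nts, the neurotensin precursor, was at 3.74, 23.1 and 13.6 CPM in dKO medial libraries and at 1.36, 0.366 and 0.23 CPM in dKO dorsal libraries (log2 fold change 4.60, SE 0.935, adjusted p = 0.0227), while its receptor gene Ntsr1 was lower in medial tissue. Mdk, which encodes the growth factor midkine, was at 59.1, 57.3 and 56.4 CPM in medial and 27.4, 28.6 and 35.5 CPM in dorsal libraries (0.92, SE 0.146, adjusted p = 0.00641). Fgfr1, an FGF receptor gene, was at 90.2, 85.8 and 85.4 CPM in medial and 68.2, 46.6 and 57.2 CPM in dorsal libraries (0.62, SE 0.131, adjusted p = 0.0277), and Lfng, a fringe enzyme that acts on Notch like Mfng, had a log2 fold change of 0.80 (SE 0.156, adjusted p = 0.0185).

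Tubb3, a tubulin gene of neurons, was at 2170, 1810 and 2180 CPM in dKO medial libraries and at 3080, 2640 and 2860 CPM in dKO dorsal libraries (log2 fold change -0.48, SE 0.0992, adjusted p = 0.0244). Tubb2a (-0.57, SE 0.117) and Tubb2b (-0.41, SE 0.0917) were lower too, and the tubulin family as a whole was not counted. These are near-identical paralogs, so reads may be split between them. Mef2c, a transcription factor of maturing excitatory neurons, was at 651, 727 and 700 CPM in medial and 1130, 1770 and 959 CPM in dorsal libraries (-0.83, SE 0.143, adjusted p = 0.00987), and Chrm1, a muscarinic receptor gene, at 9.42, 10.4 and 8.73 CPM in medial and 24, 28 and 19.5 CPM in dorsal libraries (-1.31, SE 0.194, adjusted p = 0.00434).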
